A study of Homo sapiens with 6 samples.

Results

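The zinc finger genes of human chromosome 19 were followed in HuCCT1 cells, an established cholangiocarcinoma line, after knockdown of C1QBP. The set held every protein-coding gene of chromosome 19 whose symbol is ZNF followed by a number, 249 of the 58735 genes in the count table. This rule uses no expression value, but the set was chosen with earlier results of these data known. The 265 protein-coding ZNF genes of other chromosomes served only for comparison. The tested cells received a small interfering RNA (siRNA) against C1QBP (siC1QBP, 3 libraries), and the control cells carry the treatment label siNC, read here as a negative-control siRNA (3 libraries). The cell type label of the siNC libraries is wt, so that both groups were given an siRNA rests on the treatment label alone. How long after siRNA delivery RNA was taken, and whether more than 1 siRNA was used, was not given in the sources used here. C1QBP, the siRNA target, is a mainly mitochondrial protein, and the study asks what it does in cholangiocarcinoma cells.

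Most ZNF proteins carry arrays of C2H2 fingers, short folds held by a zinc ion that read DNA bases. Many also carry a KRAB box near the amino end, which binds TRIM28 (KAP1). TRIM28 brings in the histone methyltransferase SETDB1 and HP1 proteins, and this complex silences transposable elements and other targets. Such genes arose by repeated local duplication, and chromosome 19 holds the largest share of them in tandem clusters. The DNA targets of most single members are not described here.

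Total counts ranged from 17122252 to 20416243 per library, and 25001 to 25506 genes had a count in siC1QBP libraries, against 23395 to 23841 in siNC libraries. C1QBP had 59.1, 57.6 and 60.0 CPM in siC1QBP libraries, against 174.9, 181.4 and 184.6 CPM in siNC libraries, a log2 fold change of -1.61 ± 0.05 (SE; edgeR quasi-likelihood test, adjusted p = 1.39e-12). CPM are a gene's counts over the scaled library total, times 1e6. The biliary epithelial markers KRT7, KRT19, KRT8 and EPCAM averaged 3151, 1658, 1644 and 315 CPM in siC1QBP libraries, and 3766, 1888, 1811 and 324 CPM in siNC libraries, while KRT18, CDH1 and SOX9 averaged 822, 273 and 64.4 CPM in siC1QBP libraries, and 774, 248 and 58.3 CPM in siNC libraries. The hepatocyte marker TTR and the T-cell marker CD3E had no count. Among siC1QBP libraries the first stood apart: over genes, chi-square divided by its degrees of freedom was 6.66 and 6.77 in its comparisons with the other two, and 2.09 between those. CPM give each gene's part of a library's RNA, so fewer cells that express a gene and less of its RNA per cell cannot be told apart.

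Of the 249 genes, 163 had enough counts to be tested, which required about 0.542 CPM in 3 libraries. Of the 86 others, 51 had no count in any library, 16 had 1 to 9 counts in all, and the highest had 54 counts over the 6 libraries. All 86 together held 89, 90 and 105 counts in siC1QBP libraries, and 67, 106 and 73 counts in siNC libraries. A library with no count of a gene could still hold up to 0.147 to 0.175 CPM of it, the level of 3 counts, a limit that covers counting error only. The 3 readthrough genes of the set, ZNF559-ZNF177, ZNF625-ZNF20 and ZNF816-ZNF321P, were among the untested. Of the tested genes, 5 reached the required level in every siC1QBP library but not in every siNC library, 1 did the reverse and 3 did neither. The counts and medians over the 163 therefore describe the genes that passed and not the whole family.

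The tested ZNF genes of chromosome 19 lay slightly above their control level, and most of them did so by a small amount. Of the 163, 127 (77.9%) had a positive log2 fold change, against 50.6% of all 15530 tested genes. Their median was 0.16, beside 0.0026 for all tested genes and 0.07 for the 218 tested ZNF genes of other chromosomes. The middle of the distribution, from the 25th to the 75th percentile, ran from 0.02 to 0.34. The median log2 CPM relative to each gene's mean over siNC libraries was 0.17, 0.16 and 0.19 in siC1QBP libraries, against 0.0015, -0.011 and -0.0048 in siNC libraries. All 249 genes summed to 1527.5, 1541.6 and 1533.0 CPM in siC1QBP libraries, against 1440.2, 1422.9 and 1433.2 CPM in siNC libraries, a ratio of 1.07 with no overlap between the groups. The 704 other tested protein-coding genes of chromosome 19 had a median of -0.04, with 40 called higher and 117 lower.

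Few members passed the test one by one. At an adjusted p under 0.05 (edgeR, Benjamini-Hochberg over all 15530 genes), 13 of the 163 were called higher in siC1QBP cells, 7.98% beside a background of 6.47% of all tested genes. Only 3 were called lower, 1.84% beside a background of 7.84%. The share called higher was thus near the background, and the share called lower was below it. In 46 genes (28.2%) all siC1QBP libraries lay above all siNC libraries, beside a background of 16.0%, and in 9 (5.52%) all lay below, beside 16.6%. At an unadjusted p under 0.05, 37 of the 163 were higher and 6 lower, beside 2126 higher and 2373 lower of all 15530 tested genes. Leaving out 1 library changed the number called higher to 8 without siC1QBP replicate 2, 5 without siNC replicate 2 and 7 without siNC replicate 3, while over all genes the calls in either direction numbered 1105 without siNC replicate 2 and 1178 without siNC replicate 3, against 2222 with all libraries.

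Genes with a KRAB box lay above their control level on median, and those without it did not. A search of the translated coding sequences for 13 fixed residues of the KRAB A box, with at least 9 required, found it in 211 of the 249 genes, in 121 of the 265 other ZNF genes and in 38 (0.196%) of the 19408 protein-coding genes with other names. A KRAB box that has diverged further would be missed. Of the 133 tested genes with the pattern, 114 had a positive fold change, 13 were called higher (9.77%, background 6.47%) and 1 lower (0.752%, background 7.84%), and the median was 0.20. Of the 30 without it, 13 had a positive fold change, 0 were called higher and 2 lower (6.67%, near the background), and the median was -0.03. At an unadjusted p under 0.05 in edgeR, 0 of those 30 were higher and 4 lower, beside 2126 higher and 2373 lower of all 15530 tested genes. DESeq2 called 0 of the 30 higher and 2 lower. The genes with the pattern summed to 987.9, 997.3 and 979.8 CPM in siC1QBP libraries, against 884.0, 849.6 and 870.9 CPM in siNC libraries, a ratio of 1.14. Those without it summed to 539.6, 544.2 and 553.3 CPM in siC1QBP libraries, against 556.3, 573.3 and 562.3 CPM in siNC libraries, a ratio of 0.968. The grouping was made after the fold changes had been seen, and the difference between its medians has no test.

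**Figure D1:**
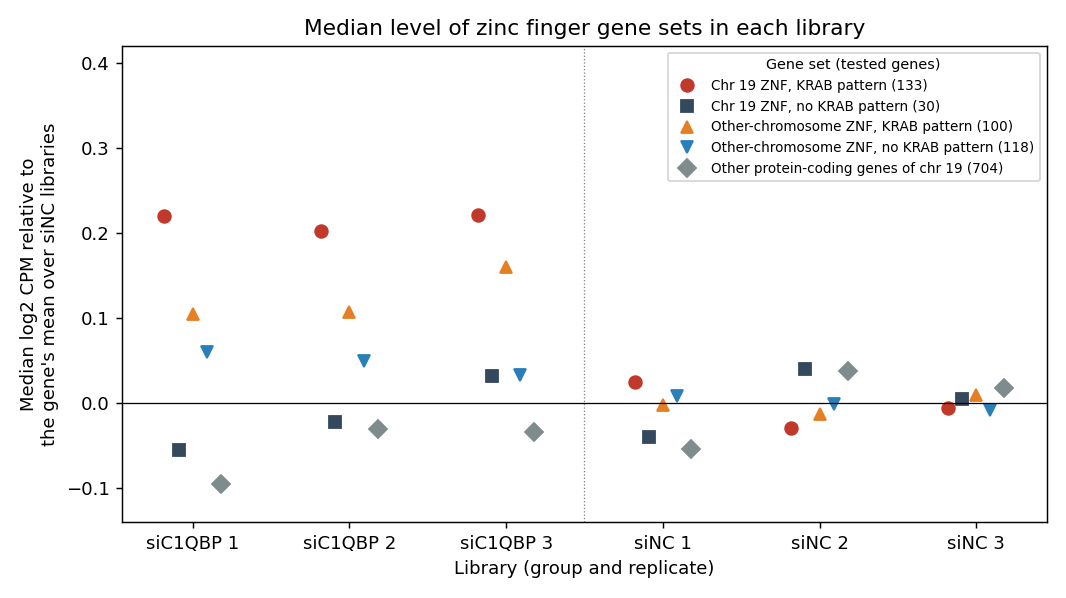
Median log2 CPM relative to each gene's siNC mean (vertical axis) in each of the 6 libraries (horizontal axis), for 5 gene sets. The chromosome 19 ZNF genes with the KRAB pattern (red circles) sit at 0.20 to 0.22 in siC1QBP libraries, above every other set, and between -0.03 and 0.03 in siNC libraries.

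ZNF genes of other chromosomes showed the same order of medians. The 100 tested genes with the KRAB pattern had a median of 0.14, with 14 (14.0%, background 6.47%) called higher and 0 lower by edgeR (0 lower by DESeq2 and 2 at an unadjusted p). The 118 without it had a median of 0.04, with 8 (6.78%) called higher, near the background, and 3 (2.54%, background 7.84%) lower. The share of KRAB genes called higher was thus 9.77% on chromosome 19 and 14.0% elsewhere. Both KRAB sets thus had higher medians than their partner sets, 0.20 on chromosome 19 and 0.14 elsewhere. The pattern was in 133 of the 163 tested genes on chromosome 19 and in 100 of the 218 elsewhere. With and without it together, the chromosome 19 ZNF genes had a median 0.09 above that of the other ZNF genes. In per-library medians that distance was 0.097, 0.076 and 0.13 for the 3 siC1QBP libraries.

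Level, GC content and length moved with the grouping. The tested genes with the pattern had a median level of 5.07 CPM and a median transcript GC content of 42.5%, against 12.97 CPM and 60.8% for those without it. Their median gene length was 5425 bases, against 3874 bases. Weakly expressed genes that are not ZNF also tended to lie higher in siC1QBP cells, with a median of 0.19 at or below 1 CPM. Within level ranges, the KRAB genes had medians of 0.22 at 2 to 5 CPM (37 genes), 0.18 at 5 to 10 CPM (40 genes), 0.16 at 10 to 20 CPM (20 genes) and 0.14 at 20 to 50 CPM (8 genes). The non-ZNF genes in those ranges had medians of 0.08, 0.04, -0.0077 and -0.03. At 1 to 2 CPM both medians were 0.16. The KRAB genes of other chromosomes had medians of 0.18 at 2 to 5 CPM (20 genes), 0.18 at 5 to 10 CPM (27 genes), 0.11 at 10 to 20 CPM (22 genes) and 0.14 at 20 to 50 CPM (17 genes). At 1 to 2 CPM their median was negative, -0.11 (10 genes). When each library's trend with level was removed, the median of the KRAB genes was 0.15 and that of the others -0.03. When the trend with GC content was removed, the medians were 0.18 and 0.04, and with the length trend removed they were 0.19 and -0.0033. Across the 133 KRAB genes the fold change had a Spearman correlation of -0.018 with GC content, 0.065 with length and 0.17 with the number of fingers. Across the 30 genes without the pattern it was -0.50 with GC content and 0.45 with length, and across all 163 it was -0.23 and 0.21. These describe genes that share libraries. Of the 30, 18 were at least 57.9% GC, with a median log2 fold change of -0.10. The 5 up to 41.1% GC and the 2 between 41.1% and 45.9% GC each had medians of 0.09. The 3 between 45.9% and 51.6% GC had a median of -0.11, and the 2 between 51.6% and 57.9% GC had -0.03. The 2 KRAB genes of at least 57.9% GC had a median of -0.0086.

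**Figure D2:**
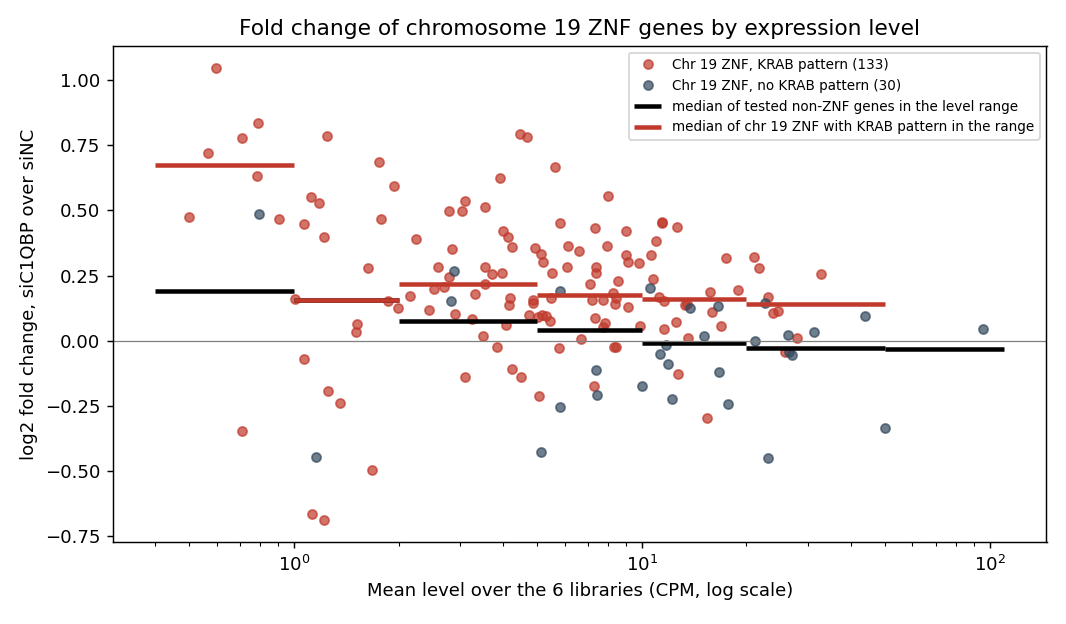
Log2 fold change, siC1QBP over siNC (vertical axis), against mean level in CPM on a log axis, for the 163 tested chromosome 19 ZNF genes. Red bars give the median of genes with the KRAB pattern in each level range and black bars that of the non-ZNF genes, and the red bar lies above the black in every range shown except 1 to 2 CPM, where they coincide.

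ZNF616 and ZNF841 are neighbours on the minus strand, at chr19:52113091-52139922 and chr19:52064466-52095765 (hg38), and are the only adjacent tested members that were both called. They encode arrays that matched the finger spacing 22 and 20 times. ZNF616 had 6.22, 5.37 and 5.41 CPM in siC1QBP libraries, against 3.62, 2.88 and 3.32 CPM in siNC libraries. Every siC1QBP library was above every siNC library, and its log2 fold change of 0.79 ± 0.17 (SE) had an adjusted p of 0.0046 in edgeR. It was the only one of the 16 called members that stayed called in every fit tried. ZNF841 had 10.5, 10.4 and 10.1 CPM in siC1QBP libraries, against 7.96, 7.89 and 7.24 CPM in siNC libraries, the tightest siC1QBP group of the pair. The log2 fold change was 0.42 ± 0.11 (edgeR adjusted p = 0.020), and the call was lost without siC1QBP replicate 2 and without siNC replicate 2 or 3. Less than 3% of either gene's 50-base transcript words occur in another gene, 0.84% for ZNF616 and 2.33% for ZNF841, so their reads can mostly be told apart.

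The promoters of this pair are shown because they are alike and hold the same kind of box. The 150 bases before the RefSeq start (GRCh38.p14) of ZNF616, chr19:52139939-52140088, and of ZNF841, chr19:52095766-52095915, both on the minus strand, matched at 76.6% of aligned columns. Among the 120 pairs of the 16 called members' promoters this was the highest identity, beside a median of 49.3%. Capitals mark the GC box read by Sp factors, GGGCGG, on either strand. Neither promoter holds a CCAAT box in this stretch.
ZNF616: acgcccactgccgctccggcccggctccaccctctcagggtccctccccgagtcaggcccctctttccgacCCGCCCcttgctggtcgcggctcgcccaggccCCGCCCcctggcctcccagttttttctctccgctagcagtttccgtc
ZNF841: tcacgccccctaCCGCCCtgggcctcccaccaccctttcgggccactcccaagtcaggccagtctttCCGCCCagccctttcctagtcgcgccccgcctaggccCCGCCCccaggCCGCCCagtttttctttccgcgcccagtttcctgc

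ZNF460 (chr19:57280051-57293569, plus strand) had the next largest called rise. It had 6.39, 6.81 and 4.57 CPM in siC1QBP libraries, against 3.90, 3.67 and 2.72 CPM in siNC libraries. The third library was the lowest in both groups, and the groups did not overlap. The log2 fold change was 0.78 ± 0.19 (edgeR adjusted p = 0.012), and the call was lost without siC1QBP replicate 2 or siNC replicate 3. ZNF468 (chr19:52838008-52890375, minus strand) had 7.61, 6.52 and 6.56 CPM in siC1QBP libraries, against 5.16, 3.77 and 4.14 CPM in siNC libraries. The log2 fold change was 0.67 ± 0.16 (edgeR adjusted p = 0.010). This value is uncertain, since 99.2% of its 50-base transcript words also occur in ZNF320, a neighbour that held 1 to 6 counts per library, and how shared reads were counted was not given in the sources used here. ZNF254 (chr19:24033405-24129961, plus strand), at the centromere-side end of its cluster, had 4.22, 4.85 and 5.15 CPM in siC1QBP libraries, against 3.46, 2.83 and 2.94 CPM in siNC libraries. The log2 fold change was 0.63 ± 0.18 (edgeR adjusted p = 0.027), and the call was lost without replicate 2 or 3 of either group. Of the 50-base transcript words of ZNF254, 10.1% occur in other genes, AC092279.1 foremost.

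ZNF766 (chr19:52269571-52296046, plus strand) lies in the same cluster as ZNF616 and ZNF841. It had 9.62, 8.54 and 10.4 CPM in siC1QBP libraries, against 5.98, 7.74 and 5.72 CPM in siNC libraries, with a log2 fold change of 0.55 ± 0.14 (edgeR adjusted p = 0.015). ZNF304 (chr19:57351307-57359898, plus strand), described elsewhere as a KRAB protein that brings TRIM28 to silenced tumour suppressor genes in colorectal cancer cells, had 12.2, 13.04 and 14.4 CPM in siC1QBP libraries, against 10.3, 9.77 and 8.82 CPM in siNC libraries. Its log2 fold change was 0.46 ± 0.11 (edgeR adjusted p = 0.011). ZNF227 (chr19:44207547-44237268, plus strand) had 12.6, 14.4 and 12.8 CPM in siC1QBP libraries, against 8.01, 9.33 and 11.7 CPM in siNC libraries. Its siNC libraries spread widely, the highest of them lying just under the lowest siC1QBP library, and its log2 fold change was 0.45 ± 0.13 (edgeR adjusted p = 0.026). ZNF426 (chr19:9523224-9538645, minus strand) had 15.5, 14.4 and 13.5 CPM in siC1QBP libraries, against 10.4, 9.92 and 11.8 CPM in siNC libraries, with a log2 fold change of 0.44 ± 0.11 (edgeR adjusted p = 0.011). ZNF791 (chr19:12610918-12633840, plus strand) had 22.95, 23.7 and 23.5 CPM in siC1QBP libraries, against 18.7, 17.6 and 20.04 CPM in siNC libraries, with a log2 fold change of 0.32 ± 0.08 (edgeR adjusted p = 0.014). Its siC1QBP libraries lay close together and above all siNC libraries. ZNF45, ZNF587 and ZNF317 were called with log2 fold changes of 0.32, 0.28 and 0.26. The value of ZNF587 is also uncertain, since 20.2% of its 50-base words occur in other genes, ZNF417 foremost, and its call was lost with the length trend removed. Among these calls and that of ZNF468, leaving out siNC replicate 2 ended those of ZNF468, ZNF227, ZNF426, ZNF791, ZNF45, ZNF587 and ZNF317. Leaving out siNC replicate 3 ended those of ZNF766, ZNF304, ZNF45 and ZNF587, and leaving out siNC replicate 1 those of ZNF766, ZNF227, ZNF45 and ZNF317. Without siC1QBP replicate 3 the calls of ZNF766, ZNF304, ZNF45 and ZNF587 were lost, without replicate 2 those of ZNF227 and ZNF587, and without replicate 1 that of ZNF45. ZNF841, ZNF791, ZNF227, ZNF468 and ZNF587 overlap another protein-coding gene, and the strand setting of the counting was not given in the sources used here.

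**Figure D3:**
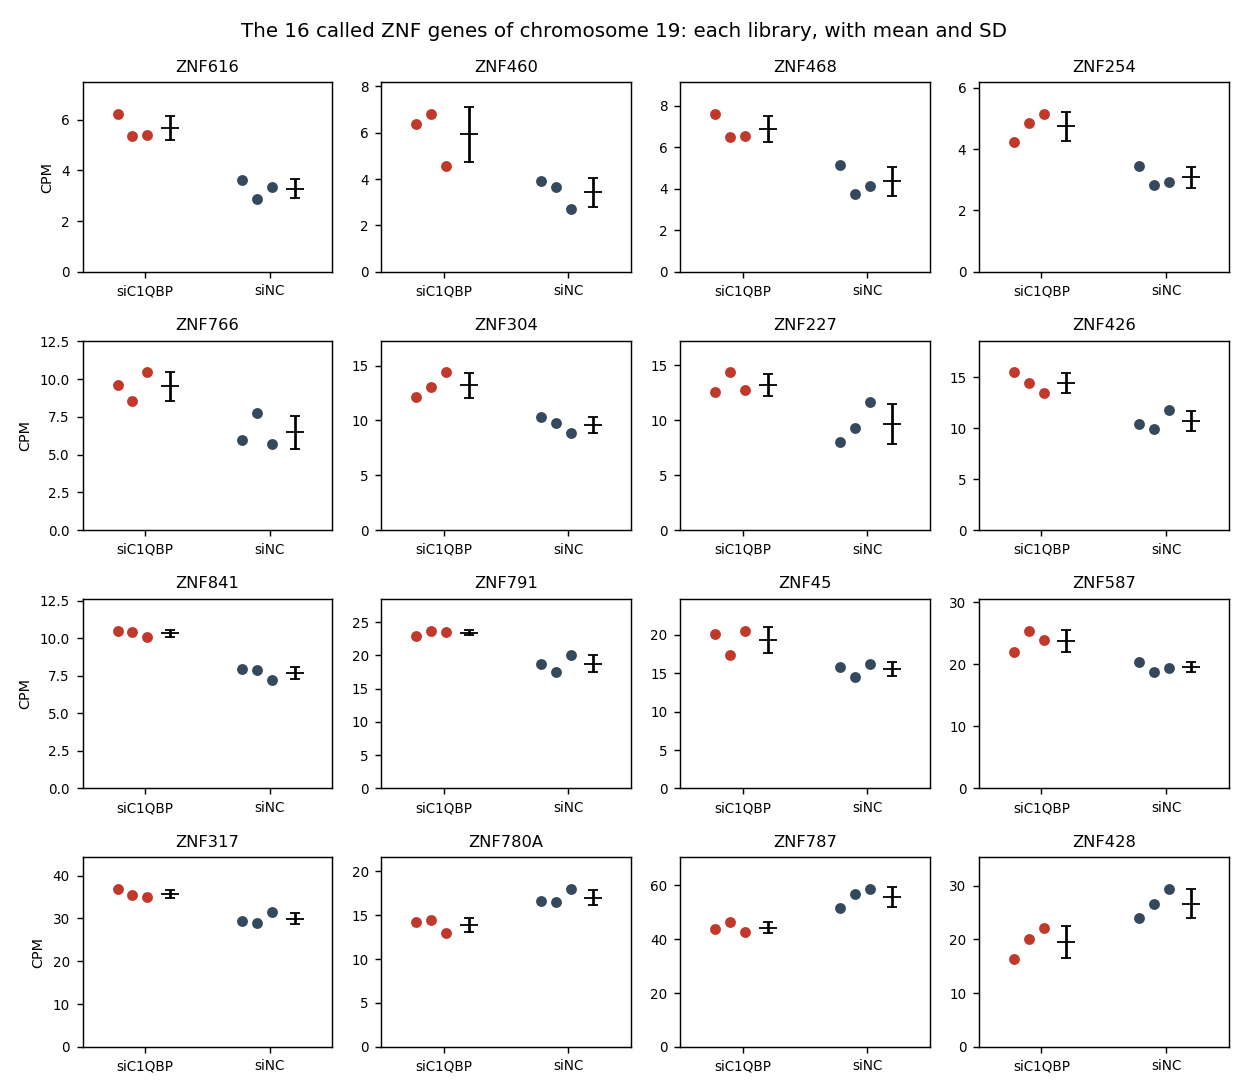
CPM (vertical axis, from 0) of the 16 called members in each siC1QBP library (red, left) and each siNC library (dark, right), with the mean and SD beside the points. In the 13 genes from ZNF616 to ZNF317 the red points lie above all dark points, and in ZNF780A, ZNF787 and ZNF428 they lie below.

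All 3 genes called lower are expressed above the typical level of the set. ZNF428 (chr19:43607219-43619874, minus strand), whose product matched the finger spacing 1 time, had 16.3, 20.1 and 22.2 CPM in siC1QBP libraries, against 23.9, 26.6 and 29.4 CPM in siNC libraries. Its log2 fold change was -0.45 ± 0.10 (edgeR adjusted p = 0.0085), the call was lost without siNC replicate 3, and the gene overlaps SRRM5. ZNF787 (chr19:56087366-56121280, minus strand) had 43.7, 46.5 and 42.6 CPM in siC1QBP libraries, against 51.7, 57.0 and 58.7 CPM in siNC libraries, with a log2 fold change of -0.33 ± 0.06 (edgeR adjusted p = 0.0024). Its call was lost when the trend with GC content was removed (edgeR adjusted p = 0.056 then), and its longest transcript is 70.3% GC. ZNF780A (chr19:40069152-40090938, minus strand), the only KRAB gene called lower, had 14.2, 14.5 and 12.9 CPM in siC1QBP libraries, against 16.6, 16.5 and 18.0 CPM in siNC libraries. Its log2 fold change of -0.30 ± 0.09 (edgeR adjusted p = 0.043) lost its call in 7 of 15 other fits, DESeq2 included.

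Per length of gene model, the strongest expressed members all lacked the KRAB pattern. ZNF146, a protein made almost wholly of zinc fingers, led with 23.2 CPM per kb. It had 100.6, 94.4 and 97.3 CPM in siC1QBP libraries, against 97.9, 94.6 and 91.0 CPM in siNC libraries, and the groups overlapped. Its log2 fold change was 0.04 ± 0.05 (edgeR adjusted p = 0.61). ZNF787 and ZNF428 came next with 13.6 and 12.8 CPM per kb, followed by ZNF524 with 8.65 and ZNF581 with 7.91 CPM per kb. ZNF524 had 10.9, 11.7 and 12.5 CPM in siC1QBP libraries, against 11.1, 12.6 and 11.9 CPM in siNC libraries. ZNF581 had 12.3, 15.5 and 15.2 CPM in siC1QBP libraries, against 14.7, 13.2 and 11.5 CPM in siNC libraries. Neither ZNF524 nor ZNF581 was called, with log2 fold changes of -0.02 ± 0.11 and 0.13 ± 0.12.

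The largest fold changes of either sign belonged to weakly expressed genes and did not pass the test. ZNF154 had a log2 fold change of 1.04 ± 0.48 (edgeR adjusted p = 0.16) at 0.806 CPM in siC1QBP libraries and 0.390 CPM in siNC libraries on average. Its siNC mean lay below the level of about 0.542 CPM required in 3 libraries, so it could not have been tested on its siNC libraries alone. ZNF233 had 0.83 ± 0.39, and ZNF738 and ZNF480 had -0.69 ± 0.32 and -0.66 ± 0.35. These 4 were picked after their values had been seen, to show where the extremes lie.

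Joining members whose starts lie within 0.5 Mb of each other gave 20 groups, of which 9 held at least 5 tested genes. These 9 clusters contained 230 of the 249 genes and 148 of the 163 tested. Every cluster except the eighth had a positive median log2 fold change. From the short arm to the end of the long arm the medians were 0.17, 0.12, 0.23, 0.36, 0.05, 0.30, 0.25, -0.09 and 0.14. The 15 tested genes outside the clusters had a median of 0.14. In 7 clusters the summed CPM of every siC1QBP library exceeded that of every siNC library, in the fifth the groups overlapped, and in the eighth every siC1QBP library was lower.

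**Figure D4:**
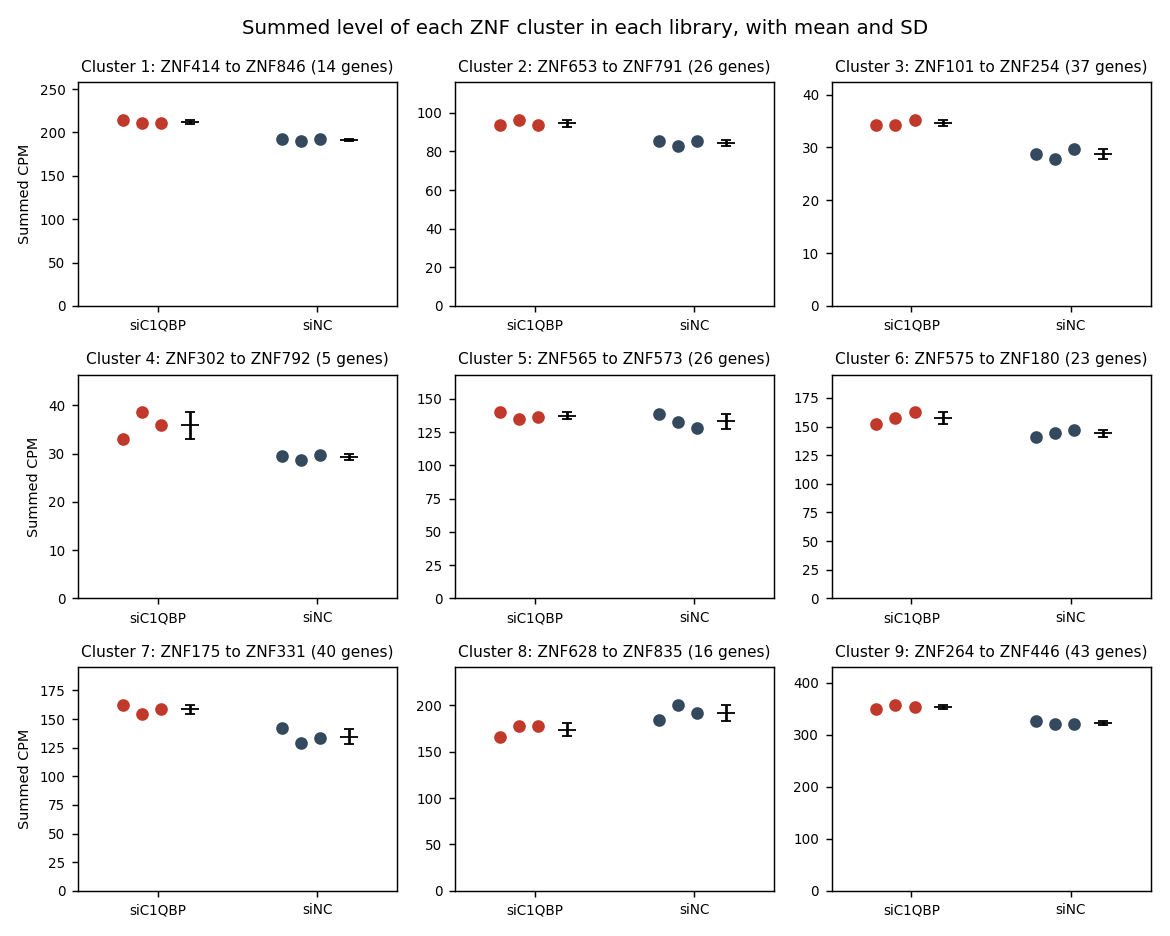
Summed CPM of all members (vertical axes, from 0) of each of the 9 clusters in siC1QBP libraries (red, left) and siNC libraries (dark, right), with mean and SD beside the points. Cluster 8, from ZNF628 to ZNF835, is the only panel where all red points are below all dark points.

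The seventh cluster, ZNF175 to ZNF331 at chr19:51571298-53580269, is the one with ZNF616, ZNF841, ZNF766 and ZNF468. All 40 of its genes carry the KRAB pattern, 28 were tested, 23 had a positive fold change and 4 were called higher (14.3%, background 6.47%). It summed to 162.6, 154.8 and 158.7 CPM in siC1QBP libraries, against 142.1, 128.8 and 133.3 CPM in siNC libraries, a ratio of 1.18. The sixth, ZNF575 to ZNF180 at chr19:43525497-44500524, with ZNF428, ZNF45 and ZNF227, had 18 of 21 tested genes with a positive fold change. It summed to 152.6, 157.2 and 162.6 CPM in siC1QBP libraries, against 141.0, 144.4 and 146.9 CPM in siNC libraries. The ninth, ZNF264 to ZNF446 at chr19:57191500-58481230, held the most members, 43, and the most RNA. It summed to 349.3, 357.6 and 352.1 CPM in siC1QBP libraries, against 326.4, 319.8 and 320.1 CPM in siNC libraries.

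The third cluster, ZNF101 to ZNF254 at chr19:19668796-24129961, is the widest and the least expressed per gene in these cells. Only 11 of its 37 genes were tested, and they summed with the untested to 34.2, 34.3 and 35.3 CPM in siC1QBP libraries, against 28.8, 27.7 and 29.6 CPM in siNC libraries. The fourth, 5 genes from ZNF302 to ZNF792 at chr19:34677639-34964049, had 33.1, 38.6 and 35.9 CPM in siC1QBP libraries, against 29.5, 28.7 and 29.8 CPM in siNC libraries, with all 5 fold changes positive and 0 called by edgeR or DESeq2 (2 higher at an unadjusted p under 0.05). The fifth, ZNF565 to ZNF573 at chr19:36182060-37817300, contains ZNF146, which makes up most of its 140.1, 134.9 and 136.7 CPM in siC1QBP libraries, against 138.6, 132.9 and 127.8 CPM in siNC libraries. Of its 12 tested genes 0 were called by edgeR or DESeq2, and 0 had an unadjusted p under 0.05.

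The eighth cluster, ZNF628 to ZNF835 at chr19:55476332-56671783, stood apart in both makeup and direction. None of its 9 tested genes has the KRAB pattern, and its 6 genes that do were not tested. Of the 9, 8 had a negative fold change. ZNF787 was called lower (11.1%, near the background of 7.84%). In 3 (33.3%, background 16.6%) all siC1QBP libraries lay below all siNC libraries. The cluster summed to 165.8, 177.9 and 177.3 CPM in siC1QBP libraries, against 183.7, 200.8 and 191.6 CPM in siNC libraries, a ratio of 0.905. Its tested members had a median GC content of 64.9%, and the 7 other tested protein-coding genes inside its bounds had a median log2 fold change of -0.10.

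**Figure D5:**
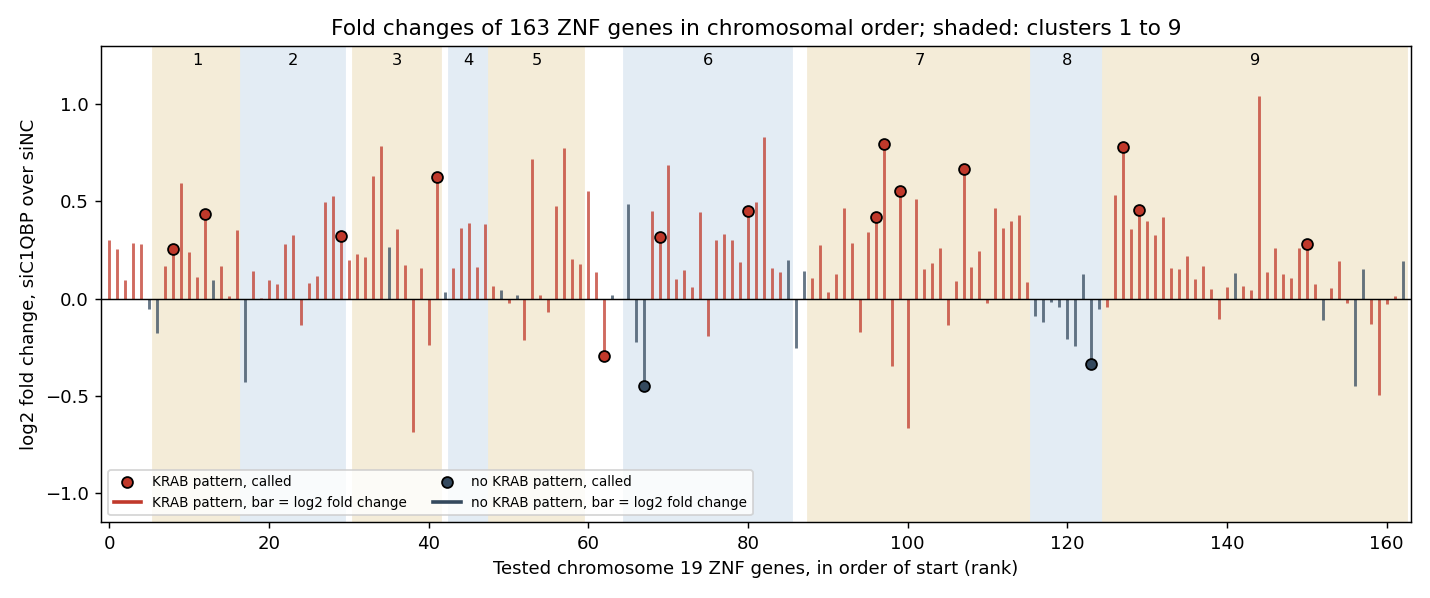
Log2 fold change, siC1QBP over siNC (vertical axis), of the 163 tested members in order of start along chromosome 19 (rank on the horizontal axis), with clusters 1 to 9 shaded. Red bars are genes with the KRAB pattern, dark bars those without, and circles mark the 16 called genes. Bars above 0 fill long stretches, and the stretch in cluster 8 is dark and mostly below 0.

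Along the chromosome, 114 of 162 pairs of neighbouring tested members (70.4%) had the same sign of fold change, beside 52.2% of neighbouring tested protein-coding genes on all chromosomes. Neighbouring tested ZNF genes of other chromosomes shared a sign in 61.6% of pairs. Of the members, 77.9% had a positive fold change, which in any order raises their share of pairs with 1 sign and lengthens runs of positive sign. With signs taken relative to the members' own median the share was 58.6%. The fold changes of neighbours had a correlation of 0.085, and within the KRAB genes alone 0.0015, a description of genes that share libraries. Runs of 1 sign, counted over tested members with the untested ones passed over, reached 13 genes in 2 places. One run went from ZNF44 to ZNF708 (chr19:12224686-21329425), across clusters 2 and 3 and ZNF333 between them. Its fold changes ran from 0.08 for ZNF44 to 0.79 ± 0.38 for ZNF430, and only ZNF791 was called. ZNF430 had 1.17, 0.981 and 2.57 CPM in siC1QBP libraries, against 1.04, 0.844 and 0.871 CPM in siNC libraries, the third siC1QBP library being the high one, and its log2 fold change was 0.23 without it. The other went from ZNF805 to ZNF550 (chr19:57240685-57559863) in cluster 9, with a median of 0.33 and ZNF460 and ZNF304 called. At its ends, ZNF805 had 3.45, 3.81 and 3.78 CPM in siC1QBP libraries, against 2.63, 2.73 and 2.23 CPM in siNC libraries, and a log2 fold change of 0.54 ± 0.20 (edgeR adjusted p = 0.079), while ZNF550 had 0.05 ± 0.14. The longest run of negative fold changes was 6 genes, ZNF628 to ZNF580, in cluster 8. The longest run of called genes was the pair ZNF841 and ZNF616.

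RefSeq promoters, 250 bases before to 50 after a start, were at hand for 217 of the 249 genes, and the first one listed was used where a gene had several. They differed in short words from those of 14466 protein-coding genes that are not ZNF. Words were searched on either strand. The CCAAT box, bound by NF-Y, was in 53.9% of the members' promoters, against 36.0% of the others. A longer form of it, TCCAATCA, was in 24.4%, against 1.26%. This word ranks among the 8-base words most in excess in these same promoters, so its contrast is partly one of selection. An ETS-family core, CGGAAG, was in 59.0%, against 25.1%. The GC box, GGGCGG, was in 68.2%, against 59.3%, and the TATA box word TATAAA in 1.84%, against 9.56%. Promoters of 213 ZNF genes of other chromosomes held CCAAT in 43.7%, TCCAATCA in 7.98% and CGGAAG in 45.1%. They held GGGCGG in 60.1% and TATAAA in 4.23%, so part of each difference but that in the GC box is shared by ZNF genes elsewhere. Genes with the KRAB pattern held a CCAAT box in 58.8% of promoters, against 28.6% for those without the pattern. Among tested KRAB genes the median log2 fold change was 0.25 for the 66 with a CCAAT box and 0.18 for the 51 without. It was 0.26 for the 79 with the ETS core and 0.18 for the 38 without, and 0.26 for the 73 with the GC box and 0.17 for the 44 without, although the GC box was more frequent in promoters of genes without the pattern (80.0%) than with it (65.9%). For the longer CCAAT form the medians were 0.23 for 21 genes with it and 0.20 for 96 without. These are descriptions with no test, and a word in a promoter is not a shown binding site.

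More promoters are shown for this range, 150 bases before the RefSeq start in GRCh38.p14, with the CCAAT box, the ETS core and the GC box of either strand in capitals. ZNF791 (chr19:12610770-12610919, plus strand) and ZNF254 (chr19:24087037-24087186, plus strand), both called higher, hold the longer CCAAT form, and ZNF317 (chr19:9140247-9140396, plus strand), also called higher, holds CCAAT boxes on both strands. The stretch of ZNF254 lies inside the gene model that was counted, chr19:24033405-24129961, and not at its start. ZNF787 (chr19:56121296-56121445, minus strand), called lower and without the KRAB pattern, holds no CCAAT box, and its last GC box and its ETS core overlap. The same stretch of ZNF426, ZNF45, ZNF841, ZNF616, ZNF468 and ZNF587, all called higher, holds no CCAAT box either. Of tested members, 2 of the 22 with the longer form and 11 of the 123 without it were called higher (background 6.47%). The promoters shown are examples and do not tie the box to a direction.
ZNF791: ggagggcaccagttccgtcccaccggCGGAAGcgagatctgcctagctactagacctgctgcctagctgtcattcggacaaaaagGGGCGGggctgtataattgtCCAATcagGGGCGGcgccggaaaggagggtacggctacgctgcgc
ZNF254: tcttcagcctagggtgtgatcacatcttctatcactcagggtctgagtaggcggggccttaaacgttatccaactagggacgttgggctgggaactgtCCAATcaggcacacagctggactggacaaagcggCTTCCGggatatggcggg
ZNF317: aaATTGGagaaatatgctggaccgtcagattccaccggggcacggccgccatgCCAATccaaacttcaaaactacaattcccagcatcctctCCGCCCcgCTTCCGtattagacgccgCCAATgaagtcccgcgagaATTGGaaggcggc
ZNF787: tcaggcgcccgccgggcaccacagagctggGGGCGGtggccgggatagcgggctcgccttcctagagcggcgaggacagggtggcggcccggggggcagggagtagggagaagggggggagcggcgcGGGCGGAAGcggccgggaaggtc

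The ZNF genes of other chromosomes gave stronger single calls. ZNF721 on chromosome 4 had 16.0, 15.2 and 14.2 CPM in siC1QBP libraries, against 8.95, 10.2 and 10.1 CPM in siNC libraries, and ZNF267 on chromosome 16 had 13.6, 12.4 and 12.8 CPM in siC1QBP libraries, against 8.01, 8.88 and 8.12 CPM in siNC libraries. Both carry the KRAB pattern, and both had a log2 fold change of 0.63 (edgeR adjusted p = 0.00081 and 0.0011). ZNF703 on chromosome 8, a transcriptional repressor amplified in some luminal breast cancers, had a log2 fold change of -0.40 ± 0.06 (edgeR adjusted p = 0.00025). Of 14 chromosome 19 genes named ZFP, ZSCAN or ZIM, 4 were tested and all 4 had a positive fold change. ZSCAN5A alone was called, with 4.95, 4.50 and 4.36 CPM in siC1QBP libraries, against 2.85, 3.18 and 3.05 CPM in siNC libraries (log2 fold change 0.60 ± 0.17, edgeR adjusted p = 0.028), and its call was lost without any 1 library, in DESeq2 and with the level trend removed.

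Of 36 genes for the co-repressors that KRAB proteins work through and related silencing factors, all were tested, 2 were called higher (5.56%, background 6.47%) and 4 lower (11.1%, background 7.84%), shares near the background, and their median log2 fold change was 0.03. TRIM28, the direct KRAB partner and itself a chromosome 19 gene, had 359.2, 359.7 and 349.0 CPM in siC1QBP libraries, against 392.9, 407.3 and 403.6 CPM in siNC libraries. All siC1QBP libraries lay below all siNC libraries, with a log2 fold change of -0.17 ± 0.04 (edgeR adjusted p = 0.0079), and the call was lost without siNC replicate 2 or 3 and with the GC trend removed. CBX3, which encodes HP1 gamma, had 298.2, 262.4 and 305.1 CPM in siC1QBP libraries, against 383.2, 382.6 and 398.2 CPM in siNC libraries, with a log2 fold change of -0.43 ± 0.05 (edgeR adjusted p = 6.32e-05). UHRF1, which reads newly replicated methylated DNA for DNMT1, had a log2 fold change of -0.33 ± 0.05 (edgeR adjusted p = 0.00084). SETDB1 had 27.5, 27.6 and 27.8 CPM in siC1QBP libraries, against 26.3, 22.8 and 25.98 CPM in siNC libraries, and was not called (log2 fold change 0.15 ± 0.08). FAM208A, the TASOR subunit of the HUSH complex, and CHD4, the NuRD remodeller, were called higher with log2 fold changes of 0.16 ± 0.05 and 0.24 ± 0.07. Both of these calls were lost without replicate 2 or 3 of either group, with the length trend removed and when every gene with a count was tested, and that of CHD4 also without siNC replicate 1. Whether any of these changes bears on the ZNF levels was not tested.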

How the data were processed

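The authors deposited raw counts per gene for 6 libraries, with gene length, biotype and coordinates in the same table. Libraries were made with a strand-marking kit, per the labels' protocols, and the build is hg38 per the submitters' processing notes; which aligner, counting program and strand setting were used was not given in the sources used here. No label says that replicates are separate cultures, so a p-value here rests on a spread between libraries that may be technical. The whole table was fitted with edgeR 4.0.16 (TMM scaling, filterByExpr, quasi-likelihood test) in R 4.3.3, on treatment alone, and p-values were adjusted by Benjamini-Hochberg over all genes tested. A single gene's exact permutation test of 3 against 3 libraries cannot go below 0.1, so none is given. DESeq2 1.42.0 was an alternative. The method was tested on simulated counts. Coding sequences and GC content came from GENCODE 29 transcripts, promoters from RefSeq, and promoter pairs were aligned with Biopython. Members were named as the largest called changes, the highest levels per kb and the ends and strongest members of runs. The members and lists were chosen with earlier results of these data known, and the KRAB grouping, the GC and level corrections and the check of shared sequence were added after the data had been seen.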

Additional observations from a re-analysis of the deposited data

How the results depend on the processing

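All 16 called members kept their sign in every fit, and 14 lost their call without at least 1 library. With 1 library left out, the number called higher ran from 5 to 14, the number called lower from 1 to 3, the calls over all genes from 1105 to 2583, the members' median from 0.14 to 0.19, the median with the KRAB pattern from 0.21 to 0.24, that without it from -0.079 to 0.00070, the difference between those medians from 0.21 to 0.32 and the share of neighbours of 1 sign from 63.2% to 71.3%. The 13 called higher, all with the KRAB pattern, became 1 at an adjusted p under 0.01 (1057 calls over all genes) and 8 of 94 without members that overlap another protein-coding gene, where the KRAB median was 0.18. Removing the level trend gave a members' median of 0.12, a KRAB median of 0.15 and a difference of 0.18, and removing the GC trend gave a KRAB median of 0.18, a median of 0.036 without the pattern and a difference of 0.15. Scaling by library size only gave 0.18 for the members and 0.22 for the KRAB genes, and made 58.0% of all calls rises, against 45.2% with TMM scaling. Testing only genes of at least 1 CPM gave a KRAB median of 0.18. The share of neighbours of 1 sign was 63.5% when every gene with a count was tested, a fit that held 198 members, and 58.6% relative to the members' own median. The difference from the other ZNF genes, the longest run and the number of clusters stayed within the spread between replicates or within 1.5 times under every alternative run. A fit with the replicate number as a block called 15 members higher and 3 lower, with 3092 calls over all genes; same-numbered libraries deviated together with correlations of 0.043, 0.033 and -0.0094, and not every library correlated best with its own number. The causes of these movements were not tested. Why the 86 untested members had few or no counts was not tested either.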
